A study of Mus musculus with 10 samples.

Results

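The genes described here are 9 receptors through which macrophages sense chemokines, the small secreted proteins that direct leukocyte migration. They were taken as a named list, Ccr1, Ccr2, Ccr3, Ccrl2, Cx3cr1, Cxcr1, Cxcr2, Cxcr4 and Ackr3, and all 9 were found among the 24538 genes of the count tables. RNA-seq had been performed on 5 libraries of metastasis-associated macrophages (MAMs) and 5 of resident alveolar macrophages (RAMs), all from wild type C57BL6/J mice aged 8 to 10 weeks. Both populations were sorted on the markers CD45+;F4/80+;LY6C- and on MRC1+;FSC hi. MAMs were the CD11C-;CD11B+ subset of metastases cut out of the lungs, which had grown from E0771-LG mammary tumor cells injected into the tail vein of syngeneic females at 6 to 8 weeks, and RAMs were the CD11C+;CD11B- subset of normal lungs. According to the sample records each MAM library pooled metastases of 2 to 4 mice, while the study's methods give a wider range that includes single mice. Tissue, sorting gate and macrophage type changed together, and their parts in any difference cannot be told apart.

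Most chemokine receptors are 7-transmembrane proteins that signal through inhibitory G proteins and are then silenced by arrestins and RGS proteins. Ccr2 brings monocytes from the marrow and blood into inflamed tissue, Ccr1 and Ccr3 bind overlapping sets of inflammatory CC chemokines, and Cx3cr1 binds the membrane-anchored chemokine made from Cx3cl1. Cxcr1 and Cxcr2 are the receptors of neutrophil-attracting CXC chemokines, while Cxcr4 binds Cxcl12 and holds cells in the marrow and other niches. Ackr3 and Ccrl2 are atypical: Ackr3 binds Cxcl12 and Cxcl11 and removes them without G protein signaling, and Ccrl2 presents chemerin to neighboring cells.

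The libraries held between 50746305 and 87523247 counts on genes, and levels are given as CPM, the counts scaled to a common total over the tested genes after TMM normalization (mean ± SD, n = 5 libraries per group unless stated). The gate was visible in the RNA. Itgam, which encodes CD11B, measured 6270 CPM in MAMs and 64.3 CPM in RAMs, and Itgax, which encodes CD11C, 171 CPM and 991 CPM. The alveolar macrophage markers summed to between 10977 and 13878 CPM in RAM libraries and to between 276 and 573 CPM in MAM libraries, with Chil3 the most abundant in RAMs and Marco in MAMs. The monocyte and interstitial macrophage markers summed to between 9249 and 10474 CPM in MAMs, led by C1qb, and to between 476 and 659 CPM in RAMs, led by Csf1r. Among the 115 genes above 1000 CPM in MAMs none was below 0.912% of that level in RAMs, and among the 80 genes above 1000 CPM in RAMs none was below 1.07% in MAMs.

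The transcripts of 5 receptors were higher in MAMs (Ccr2, Ccrl2, Ccr1, Cx3cr1 and Ackr3) and those of 2 were lower (Cxcr1 and Cxcr2). Cxcr4 did not pass the test, and Ccr3 was below the expression filter of a mean FPKM of 1 in either group, which 8 of the 9 receptors passed. A gene was called with an adjusted p under 0.05 and a fold over 2 in edgeR's quasi-likelihood test, adjusted over all 11571 genes tested. In that test 15.3% of all genes were called higher in MAMs and 15.1% lower, so the 5 of 8 and 2 of 8 receptors are to be read against a comparison in which calls were common. The median log2 fold change of the 8 receptors was 2.24 and that of all genes tested was -0.02. Groups did not overlap for 6 of the 8, in 5 with MAMs higher and in 1, Cxcr1, with MAMs lower, where 23.7% and 21.2% of all genes were of these kinds.

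**Figure D1:**
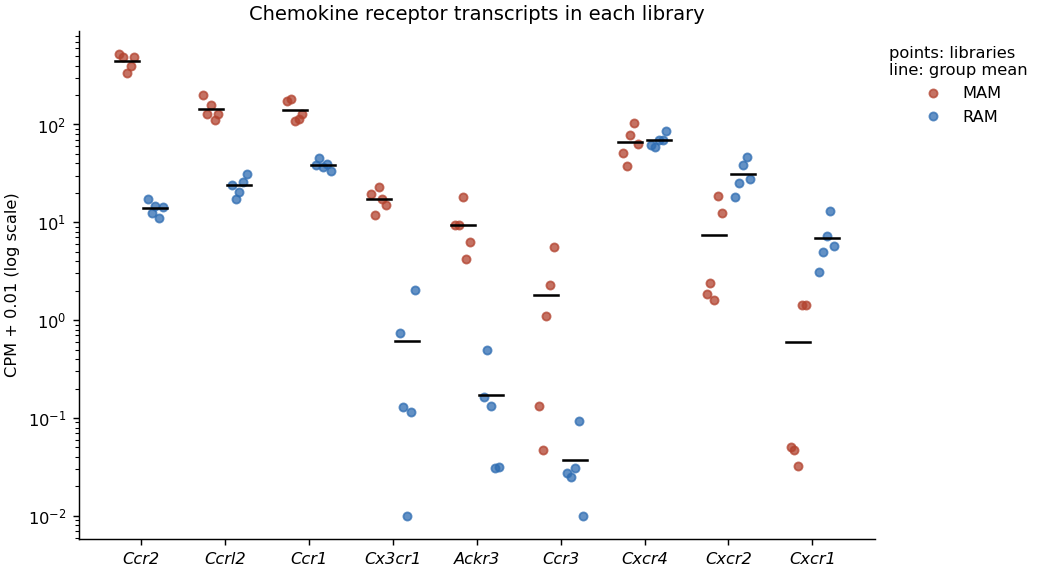
The level of each receptor in each of the 10 libraries (vertical axis, CPM + 0.01 on a log scale; points are libraries, black lines group means, with MAM in red and RAM in blue). Ccr2, Ccrl2, Ccr1, Cx3cr1 and Ackr3 separate with MAMs above RAMs and Cxcr1 with MAMs below, while the groups overlap for Ccr3, Cxcr4 and Cxcr2.

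The promoters of 3 receptors are shown because they stand for the different outcomes, a receptor that did not pass the test (Cxcr4), one expressed in both groups and higher in MAMs (Ccr1) and one near 0 in RAMs (Ackr3). Each line holds the 250 bases before the start of the RefSeq transcript on build GRCm38.p6, written on the strand of the gene, with CG dinucleotides and the letters TATAAAA in capitals. Cxcr4 lies on the minus strand (window chr1:128592300-128592549), Ccr1 on the minus strand (chr9:123968693-123968942) and Ackr3 on the plus strand (chr1:90203730-90203979).
Cxcr4: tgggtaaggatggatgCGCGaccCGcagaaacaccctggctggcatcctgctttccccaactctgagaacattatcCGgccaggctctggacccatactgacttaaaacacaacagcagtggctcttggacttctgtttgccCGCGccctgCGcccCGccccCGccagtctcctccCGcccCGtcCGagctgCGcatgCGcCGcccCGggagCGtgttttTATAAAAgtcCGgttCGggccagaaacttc
Ccr1: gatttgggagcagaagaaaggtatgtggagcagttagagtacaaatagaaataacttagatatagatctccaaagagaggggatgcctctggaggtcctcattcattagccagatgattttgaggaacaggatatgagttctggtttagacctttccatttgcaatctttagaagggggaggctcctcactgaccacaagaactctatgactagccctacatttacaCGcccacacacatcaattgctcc
Ackr3: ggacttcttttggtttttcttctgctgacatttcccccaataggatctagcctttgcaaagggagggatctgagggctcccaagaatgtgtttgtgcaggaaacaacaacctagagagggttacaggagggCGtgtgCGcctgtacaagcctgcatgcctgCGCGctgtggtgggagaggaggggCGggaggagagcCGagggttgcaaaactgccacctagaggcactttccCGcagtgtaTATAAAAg
The Cxcr4 window held 19 CG dinucleotides, more than 80.3% of the 32851 promoter windows of the same length, whose median was 6. The Ccr1 window held 1, as did those of Ccr2 and Cxcr2, and the Ackr3 window held 7. TATAAAA, searched on both strands, was found in Ackr3 and Cxcr4 among the 11 windows of the 9 receptors and in 4.98% of all windows, and in Cxcr4 its match overlaps a match on the other strand. Of the other motifs searched on both strands, GAGGAAG (the PU.1 core, in 10.6% of all windows) had no match in the receptors' windows. TGANTCA (AP-1, in 6.75%) had a match in Ccr3 only and TTGCNNAA (C/EBP, in 9.56%) in Ackr3 only. No binding was measured in these cells, and a match is a description of the letters.

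Among the receptors of CC chemokines, Ccr2 had the highest level in MAMs. It measured 521, 488, 332, 394 and 486 CPM in the MAM libraries 1 to 5 and 17.4, 12.5, 14.6, 11.1 and 14.2 CPM in the RAM libraries 1 to 5. Every MAM library was far above every RAM library. This gave a log2 fold change of 4.99 (SE 0.157, adjusted p = 1.0e-12 in edgeR's quasi-likelihood test), from 444 ± 78.6 CPM in MAMs to 14.0 ± 2.39 CPM in RAMs. The RAM level was 3.14% of the MAM level, and leaving out any 1 library gave log2 fold changes between 4.92 and 5.08. Because these are bulk samples, fewer cells with a transcript and less transcript per cell cannot be told apart, here or for the other receptors.

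Ccr1 was transcribed in both populations and was higher in MAMs. Its levels were 172, 181, 109, 115 and 129 CPM in the MAM libraries and 38.1, 45.8, 36.8, 39.5 and 33.3 CPM in the RAM libraries. The groups did not overlap, although the difference was the smallest of the 5 receptors called higher. On the log2 scale it came to 1.87 (SE 0.150, adjusted p = 4.5e-08, edgeR), and RAMs held 27.4% of the MAM level.

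Ccr3, the receptor of the eotaxins, was at the limit of detection in most libraries. It had 6, 2, 49, 127 and 386 counts in the MAM libraries 1 to 5 and 1, 1, 1, 4 and 0 counts in the RAM libraries. MAM replicates 3 to 5 held most of the counts, and MAM replicate 2, at 0.0375 CPM, was below RAM replicate 4, at 0.0835 CPM. In a fit without the filter its log2 fold change was 5.98 (adjusted p = 0.00183, edgeR), where 2349 of 18035 genes (13%) were called higher in MAMs, and the exact two-sided permutation test over the 10 libraries gave p = 0.0159. Without MAM replicate 5 the value was 4.94, and without RAM replicate 4 it was 6.88. The eosinophil and basophil markers summed to between 0.181 and 5.37 CPM in MAMs, led by Gata2, and to between 0.269 and 1.88 CPM in RAMs, led by Ear6. Prg2, Prg3 and Fcer1a had no count in any library and Epx was at most 0.18 CPM. Gata2 and Mcpt8 were at 3.81 and 1.13 CPM in MAM replicate 5, which also had the most Ccr3. Cpa3 and Ms4a2 went the other way, with no count in MAM replicate 5. They were highest in MAM replicate 2, at 2.49 and 0.619 CPM, which had the fewest Ccr3 counts of the MAM libraries. The part of such cells in the Ccr3 counts was not tested.

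Ccr1, Ccr3 and Ccr2 lie on chromosome 9 with 4 other chemokine receptor genes examined here, within 342 kb in the RefSeq annotation. Ccr1 is at chr9:123962126-123968692 on the minus strand, Ccr3 at chr9:124017825-124031692 and Ccr2 at chr9:124101918-124109140, both on the plus strand, and no other annotated gene overlaps any of the 3. At the other end of this stretch Ccr9 was lower in MAMs (log2 fold change -1.28, adjusted p = 0.0116, edgeR) and Cxcr6, at -0.96, missed the fold threshold. Ccr1l1, between Ccr1 and Ccr3, measured 0.248 ± 0.302 CPM in MAMs and 0.0293 ± 0.0544 CPM in RAMs and was not tested. Xcr1, between Cxcr6 and Ccr1, measured 1.29 ± 1.03 and 0.455 ± 0.232 CPM and was not tested either. Of the 5629 stretches of 100 bases in the Ccr2 transcript, 53 (0.942%) were shared with transcripts of other genes, where reads could be confused, and the other 8 receptors shared none with any transcript searched.

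**Figure D2:**
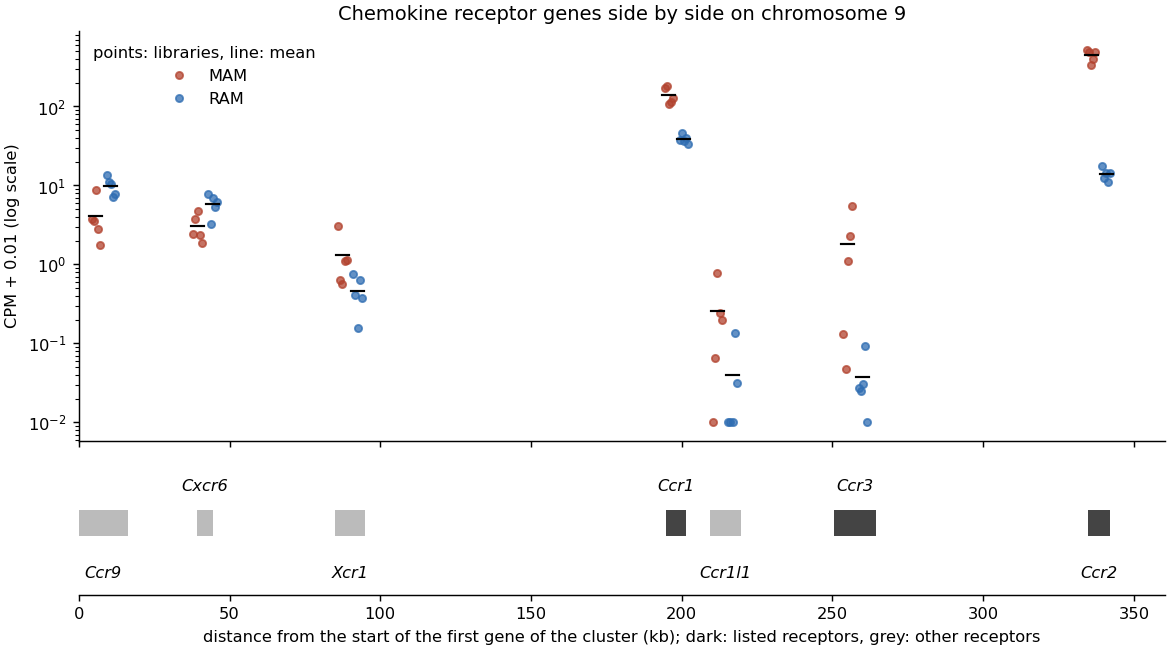
Levels in each library of 7 receptor genes on chromosome 9 (upper panel, CPM + 0.01 on a log scale; points are libraries, lines group means) above their positions in kb from the start of Ccr9 (lower panel; dark boxes are Ccr1, Ccr3 and Ccr2, grey boxes other receptors). Ccr1 and Ccr2 are high in MAMs, at 141 and 444 CPM, with Ccr1l1 and Ccr3 near 0 between them.

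Cx3cr1, the fractalkine receptor, was present in every MAM library and near 0 in most RAM libraries. It measured 19.3, 11.9, 23.1, 17.4 and 15.0 CPM in the MAM libraries and 0.736, 0.120, 0, 0.104 and 2.02 CPM in the RAM libraries. RAM replicate 5 held 95 of the 151 counts found in RAMs, and even this library was below every MAM library. MAMs exceeded RAMs by a log2 fold change of 4.87 (SE 0.836, adjusted p = 1.4e-04, edgeR), and it was 6.13 without RAM replicate 5. Cx3cr1 lies at chr9:120048683-120068296 on the minus strand and overlaps Gm33858 in the RefSeq annotation. The strand setting of the counting was not given in the sources used here, so reads of the overlapping gene cannot be set apart.

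Ackr3, the scavenger of Cxcl12 and Cxcl11, had the largest log2 fold change of the tested receptors in the count fit. When FPKM values were fitted with limma and a pseudocount of 1, Ackr3 came after Ccr2 and Ccrl2 (2.36 against 4.55 and 2.58). With a pseudocount of 0.1 it came after Ccr2 alone (4.75 against 4.90). It measured 9.29, 9.47, 17.9, 4.23 and 6.22 CPM in the MAM libraries and 0.154, 0.480, 0.124, 0.0209 and 0.0213 CPM in the RAM libraries. MAM replicate 3 was the highest and MAM replicate 4 the lowest, and both were above all RAM libraries. The log2 fold change was 5.80 (SE 0.742, adjusted p = 7.9e-06, edgeR). RAM replicate 2 held 32 of the 49 counts of RAMs, and without it the value was 6.80. The RAM level was 1.70% of the MAM level, where the lowest share among genes abundant in MAMs was 0.912%. Endothelial and stromal cells also make Ackr3, and their 12 markers summed to between 62.7 and 120 CPM in MAMs, led by Kdr, and to between 128 and 221 CPM in RAMs, led by Vwf. Of the 6 of these markers tested, 5 were called higher in MAMs (83.3%, against 15.3% of all genes) and 1, Vwf, lower (16.7%, against 15.1%). Kdr, among the 5, measured 29.0 ± 16.3 CPM in MAMs and 0.948 ± 0.715 CPM in RAMs. The median log2 fold change of the 6 was 3.68. Cldn5 had no count in MAMs, and the part of such cells in the Ackr3 result was not tested.

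Ccrl2, the chemerin-presenting receptor, was higher in every MAM library. It measured 201, 127, 159, 110 and 128 CPM in the MAM libraries and 24.2, 17.1, 20.5, 25.9 and 31.2 CPM in the RAM libraries. MAMs were higher by a log2 fold change of 2.61 (SE 0.185, adjusted p = 1.0e-08, edgeR), and RAMs kept 16.4% of the MAM level. Ccrl2 is at chr9:111054834-111057518 on the minus strand, apart from the stretch that holds Ccr1 and Ccr2. Cmklr1, the signaling receptor for the same ligand, rose by 6.64 on the log2 scale (SE 0.0904, adjusted p = 1.7e-16, edgeR), from 6.11 ± 0.317 CPM in RAMs to 609 ± 43.1 CPM in MAMs. Its RAM level was 1.00% of its MAM level, near the lowest share among genes abundant in MAMs, 0.912%. Rarres2, which encodes chemerin, was not tested and measured 0.194 ± 0.190 CPM in MAMs and 0.412 ± 0.180 CPM in RAMs.

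**Figure D3:**
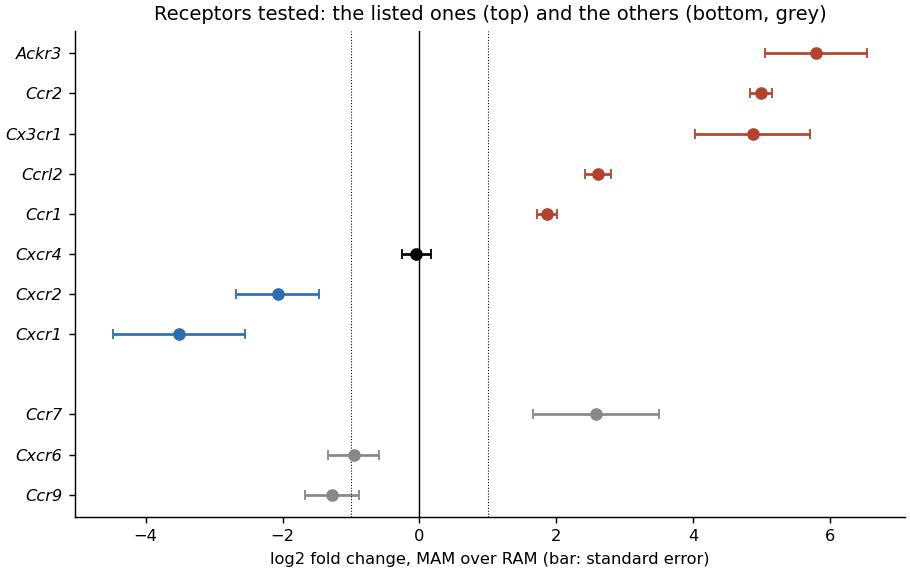
The log2 fold change of MAMs over RAMs with its standard error for the 8 receptors tested (upper group; red called higher, blue called lower, black not called) and for the 3 other chemokine receptors tested (lower group, grey). Dotted lines mark a fold of 2 in each direction. The values run from 5.80 for Ackr3 to -3.52 for Cxcr1, and Cxcr4 lies at -0.05.

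Cxcr4, the Cxcl12 receptor, was abundant in both populations. It measured 51.5, 37.9, 78.0, 102 and 62.8 CPM in the MAM libraries and 61.8, 58.7, 68.6, 68.7 and 85.9 CPM in the RAM libraries. The MAM libraries spread on both sides of the RAM libraries. The log2 fold change was -0.05 (SE 0.210, adjusted p = 0.865, edgeR), and the exact two-sided permutation test gave p = 0.667. Its MAM libraries varied more, with a coefficient of variation of 37.4% against 15.3% in RAMs, a contrast that was not tested. The upper-quartile normalization put the value at -0.21, and leaving out single libraries moved it between -0.26 and 0.10. Cxcl12 itself was not tested and measured 0.0203 ± 0.0455 CPM in MAMs and 0.190 ± 0.228 CPM in RAMs. Cxcr4 is at chr1:128588199-128592299 on the minus strand.

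Cxcr1 and Cxcr2, the neutrophil chemokine receptors, were the 2 receptors lower in MAMs. Cxcr1 measured 0.0407, 0.0375, 0.0224, 1.43 and 1.41 CPM in the MAM libraries and 3.13, 4.96, 7.16, 13.1 and 5.78 CPM in the RAM libraries. The 3 lowest MAM libraries held 2, 2 and 1 counts, the other 2 held 79 and 98, and the groups did not overlap. Between MAMs and RAMs the log2 fold change was -3.52 (SE 0.962, adjusted p = 0.00584, edgeR).

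Cxcr2 measured 1.85, 2.40, 1.59, 18.7 and 12.6 CPM in the MAM libraries and 17.9, 25.2, 38.3, 46.8 and 27.9 CPM in the RAM libraries. MAM replicate 4 exceeded RAM replicate 1, so the groups overlapped. The log2 fold change was -2.07 (SE 0.605, adjusted p = 0.00890, edgeR), and the exact two-sided permutation test gave p = 0.0159. Against a null fold of 2 the adjusted p was 0.0703 (edgeR), which missed the threshold. The 2 genes lie 30.5 kb apart on chromosome 1, Cxcr2 at chr1:74153994-74161246 on the plus strand and Cxcr1 at chr1:74191785-74194708 on the minus strand.

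MAM replicates 4 and 5 were the 2 highest MAM libraries for Cxcr1, Cxcr2 and Ccr3. In a fit without these 2 libraries, added after the values were seen, the log2 fold changes were -7.56 for Cxcr1 and -4.00 for Cxcr2, and within replicates 4 and 5 of both groups they were -2.74 and -1.26. Within replicates 1 to 3 they were -7.14 and -3.80. The Cxcr1 values without replicates 4 and 5 rest on MAM libraries with at most 2 counts and depend on the prior count of the fit. The table of FPKM values lists replicates 1 to 3 of both groups before replicates 4 and 5, and no source calls these batches.

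Markers of other cells were read in the same libraries. S100a8 measured 2.48, 3.67, 2.42, 7.58 and 4.45 CPM and S100a9 0.935, 0.937, 2.48, 10.1 and 4.98 CPM in the MAM libraries 1 to 5, so both were highest in replicates 4 and 5. This held for 3 of the 14 neutrophil markers (with Mmp8), while Ly6g was lowest there. The 14 neutrophil markers summed to between 148 and 307 CPM in MAMs and to between 107 and 167 CPM in RAMs, led by Csf3r, which macrophages also express. Of the 6 of these markers tested, 4 were called higher in MAMs (66.7%, against 15.3% of all genes) and 0 lower (0%, against 15.1%). Elane had no count in any library, and Ly6g had none in MAM replicates 4 and 5 or in RAMs. Retnlg reached at most 0.235 CPM. Of the 11 alveolar markers, 5 had replicates 4 and 5 as the 2 lowest MAM libraries and 0 had them as the 2 highest. Siglecf, for example, was at 3.53 and 3.09 CPM in these and at 3.58 to 4.82 CPM in the other 3. The MAM levels of Siglecf and Chil3 were 1.16% and 1.15% of their RAM levels, near the lowest share among genes abundant in RAMs, 1.07%. For Marco, also among the 5, the MAM level was 63.0% of the RAM level. The part of other cells in the Cxcr1 and Cxcr2 levels of MAMs was not tested.

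**Figure D4:**
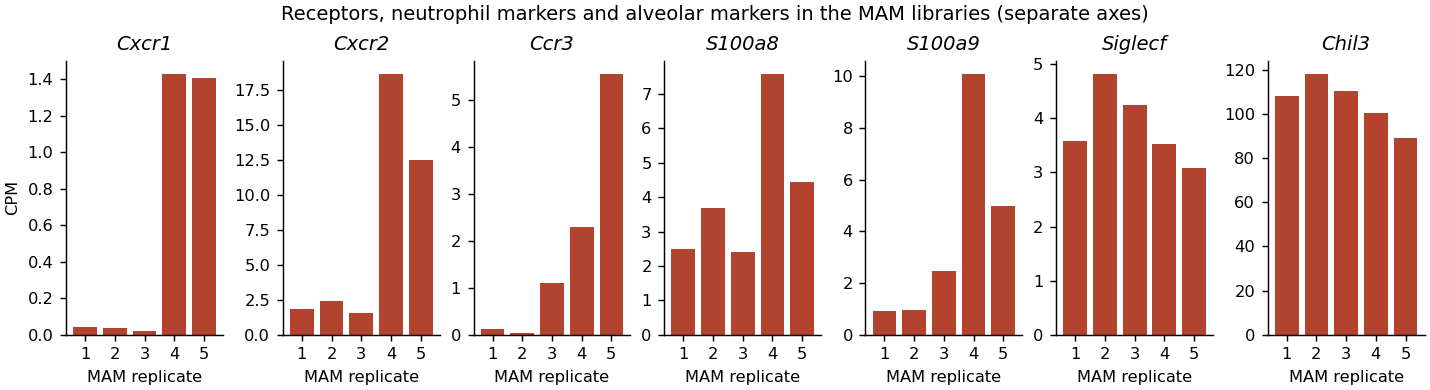
Levels in CPM of Cxcr1, Cxcr2, Ccr3, the neutrophil markers S100a8 and S100a9 and the alveolar markers Siglecf and Chil3 in MAM replicates 1 to 5 (each panel has its own vertical axis, from 0). Replicates 4 and 5 are the 2 highest for the 3 receptors, with Cxcr2 at 18.7 and 12.6 CPM. They are also the 2 highest for S100a8 and S100a9, as for only 3 of 14 neutrophil markers, and the 2 lowest for 1 of the 14, Ly6g. For Siglecf and Chil3 they are the 2 lowest, as for 5 of 11 alveolar markers, at MAM levels of 1.16% and 1.15% of RAMs.

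The sums of the dendritic cell and lymphocyte markers did not place MAM replicates 4 and 5 together at either end, and these replicates had the 2 lowest sums of MAMs for epithelial and tumour cell markers. The dendritic cell markers summed to between 8.52 and 23.5 CPM in MAMs and to between 22.5 and 33.5 CPM in RAMs, led by Batf3 and Clec9a. The lymphocyte markers summed to between 14.5 and 31.8 CPM in MAMs and to between 15.3 and 34.8 CPM in RAMs, led by Cd4 and Prf1. The epithelial and tumour cell markers summed to between 17.5 and 28.4 CPM in MAMs and to between 615 and 738 CPM in RAMs, led in both by Krt19. Most of the RAM sum came from Krt19, Cdh1 and Epcam, at 436, 131 and 76.8 CPM. Krt8 and Krt18 went the other way, at 0.0453 and 0.119 CPM in RAMs and 1.48 and 1.81 CPM in MAMs. For Krt18 the MAM mean rested on MAM replicate 1, at 8.84 CPM. The part of epithelial cells in these sums was not tested.

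Levels of different receptors were compared as FPKM values, which account for transcript length. In MAMs the order of mean FPKM was Ccr2 at 95.7 ± 16.1, Ccrl2 at 77.3 ± 19.6, Ccr1 at 41.8 ± 9.68, Cxcr4 at 38.3 ± 14.4, Ackr3 at 4.95 ± 2.54, Cx3cr1 at 4.72 ± 1.08, Cxcr2 at 2.28 ± 2.40, Cxcr1 at 0.672 ± 0.853 and Ccr3 at 0.452 ± 0.555. The ranges of neighbors overlapped except between Ccrl2 and Ccr1 and between Cxcr4 and Ackr3. In RAMs the order was Cxcr4 at 39.4 ± 6.30, Ccrl2 at 12.0 ± 2.54, Ccr1 at 11.2 ± 1.38, Cxcr2 at 9.58 ± 3.30, Cxcr1 at 6.67 ± 3.50, Ccr2 at 3.11 ± 0.582, Cx3cr1 at 0.173 ± 0.220, Ackr3 at 0.0845 ± 0.0923 and Ccr3 at 0.00909 ± 0.00711. Here Cxcr4 was clear of Ccrl2 and Ccr2 was clear of Cx3cr1, and all other neighbors overlapped. Ccr2 thus stood first in MAMs and sixth in RAMs, where Cxcr4 led.

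Transcripts of the ligands were mostly higher in MAMs as well. Of the 21 ligand genes listed, 18 were tested, with a median log2 fold change of 5.43. Of these, 16 were called higher (88.9%, against 15.3% of all genes) and 1 lower (5.56%, against 15.1%). For Ccr2, Ccl2 measured 824 ± 73.9 CPM in MAMs and 12.5 ± 1.83 CPM in RAMs (log2 fold change 6.05, adjusted p = 6.6e-15, edgeR), Ccl7 measured 457 ± 80.4 and 4.19 ± 0.344 CPM, and Ccl12 150 ± 29.4 and 1.87 ± 0.638 CPM. The RAM levels of Ccl2, Ccl7 and Ccl12 were 1.51%, 0.916% and 1.25% of their MAM levels. The lowest share among genes abundant in MAMs was 0.912%. For Ccr1, Ccl9 measured 2572 ± 294 and 62.4 ± 19.3 CPM, Ccl3 159 ± 14.5 and 47.3 ± 10.6 CPM, and Ccl5 30.1 ± 15.9 and 0.814 ± 0.436 CPM. Ccl6, also a ligand of Ccr1, was abundant in both groups at 1864 ± 370 and 1285 ± 177 CPM and was under the fold threshold. Ccl24, a ligand of Ccr3, measured 44.2 ± 16.7 and 0.401 ± 0.158 CPM, while Ccl11 measured 0.250 ± 0.206 CPM in MAMs with 1 count in all RAM libraries and was not tested.

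The receptor and its ligand went in opposite directions for Cx3cr1 and for Cxcr2. Cxcr1, the other receptor of neutrophil-attracting CXC chemokines, was lower in MAMs as well, with a log2 fold change of -3.52. Cx3cl1 fell from 50.0 ± 8.28 CPM in RAMs to 0.854 ± 0.449 CPM in MAMs, a log2 fold change of -5.87 (SE 0.304, adjusted p = 2.7e-10, edgeR), while Cx3cr1 rose. The ligands of Cxcr2 rose, where the receptor fell: Cxcl2 measured 401 ± 67.2 CPM in MAMs and 120 ± 29.7 CPM in RAMs, Ppbp 148 ± 68.2 and 2.29 ± 0.732 CPM, Cxcl1 30.8 ± 13.4 and 2.21 ± 0.664 CPM, and Cxcl3 25.7 ± 14.3 and 1.02 ± 0.200 CPM. Cxcl5 had the largest fitted log2 fold change of the list, 7.23 (SE 1.01), against RAM libraries that held 3 counts in all, so that its size depends on the prior count. Cxcl11, a ligand of Ackr3, measured 9.52 ± 4.70 and 0.0895 ± 0.0585 CPM, and Mif, which also binds Cxcr4 and Cxcr2, 25.1 ± 1.92 and 4.66 ± 0.595 CPM. Ccl8 (log2 fold change 7.08) and Ccl4 (5.50), also on the list, were called higher too.

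**Figure D5:**
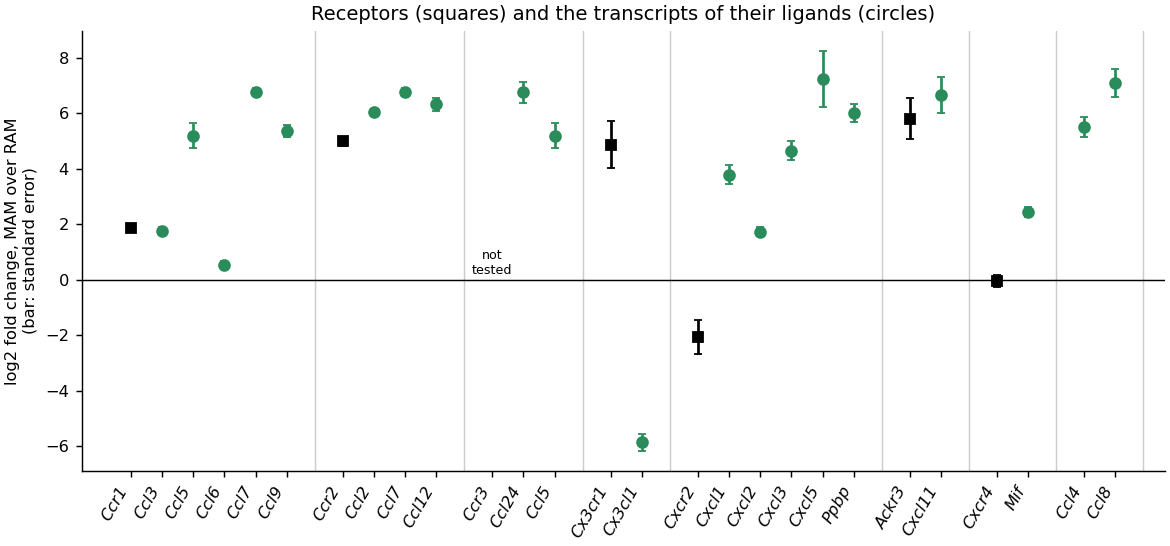
The log2 fold change of MAMs over RAMs with its standard error for Ccr1, Ccr2, Cx3cr1, Cxcr2, Ackr3 and Cxcr4 (squares), each followed by tested transcripts of its ligands (circles). Ccr3 is marked as not tested, beside its ligands, and Cxcr1 and Ccrl2 are not drawn. Ccl5 and Ccl7 appear under 2 receptors, and Ccl4 and Ccl8 stand apart at the right. Ligands lie above 0 except Cx3cl1 at -5.87, and Cxcr2 at -2.07 lies below all of its ligands.

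Of 29 signaling and desensitization genes downstream of the receptors, 5 were called higher (17.2%, against 15.3% of all genes) and 1 lower (3.45%, against 15.1%). An adjusted p under 0.05 was reached by 22 of them, mostly at a fold under 2, and the median log2 fold change was 0.10. Those called higher were Rgs18 (7.27, with 12 counts in all RAM libraries), Rgs1 (2.61) and Rgs10 (1.99), which speed the shutdown of G proteins, the arrestin Arrb1 (2.12) and the G protein subunit Gng2 (1.29). The phospholipase Plcb2 fell by 1.92 on the log2 scale, from 492 ± 57.3 CPM in RAMs to 130 ± 10.1 CPM in MAMs.

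The receptors for other chemoattractants divided in the same 2 directions. Of 14 tested, 9 were called higher (64.3%, against 15.3% of all genes) and 4 lower (28.6%, against 15.1%), with a median log2 fold change of 2.94. The complement receptor C3ar1 (6.67), Cmklr1 (6.64) and the platelet-activating factor receptor Ptafr (5.07) had the highest log2 fold changes. RAMs held 0.982% of the MAM level of C3ar1, near the lowest share among genes abundant in MAMs, 0.912%. The sphingosine phosphate receptor S1pr4 (-3.41) and the formyl peptide receptors Fpr1 (-2.93) and Fpr2 (-1.53) had the lowest. Of 14 other chemokine receptors 3 were tested, and Ccr7 was called higher (33.3%, against 15.3% of all genes) and Ccr9 lower (33.3%, against 15.1%). Ccr7 had a log2 fold change of 2.58 (adjusted p = 0.0265, edgeR) at 1.94 ± 2.35 CPM in MAMs, with overlapping groups. Ccr8 had no count in any library.

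The genes whose pattern over the 10 libraries was most like each receptor's were found from the root mean square difference of log2 CPM, each gene centred on its own mean. For Ccr1 they were Sass6 (0.13) and Etnk1 (0.14), for Ccr2 Phf11d (0.22) and S100a4 (0.25), for Ccrl2 Il2rg (0.17) and Tpst1 (0.18), and for Cxcr4 Wiz (0.18) and Zfp142 (0.19). The patterns of the low receptors were matched less closely, by Rcn1 (0.84) and Fam20c (0.90) for Cx3cr1, by Ankrd33b (0.53) and Apol9a (0.65) for Ackr3, by Pik3c2b (0.53) and Hsd11b2 (0.71) for Cxcr2, and by Dysf (0.96) and Foxj1 (1.02) for Cxcr1. Among the receptors themselves, Cxcr2 was number 5 of the genes nearest to Cxcr1, at 1.12, but Cxcr1 was only number 238 of those nearest to Cxcr2. Ccr1 and Ccrl2 differed by 0.55, with many other genes nearer to each. Ccrl2 was number 805 from Ccr1, and Ccr1 was number 319 from Ccrl2.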

How the data were processed

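Total RNA of sorted macrophages was amplified and sequenced by the authors as paired reads of 100 bases. Per the labels and methods, the authors aligned reads to GRCm38 with TopHat2 2.0.13, assigned the uniquely mapped ones to UCSC RefGene models with HTSeq 0.6.1 and deposited the raw counts. FPKM values, which the authors made with Cufflinks 2.2.1 and deposited in a joint table, are scaled by transcript length and library. The strand setting was not given in the sources used here, and molecular identifiers were not mentioned, so reads are not independent molecules.

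Libraries were grouped by their titles and sorting markers. Counts that HTSeq had not assigned to a gene (54.6% to 58.3% of all counts in MAMs and 62.2% to 64.1% in RAMs) were left out. The 11571 genes whose mean FPKM reached 1 in MAMs or in RAMs were tested with edgeR 4.0.16 in R 4.3.3, using the quasi-likelihood test, TMM normalization and Benjamini-Hochberg adjustment. A gene was called with an adjusted p under 0.05 and a fold over 2. The prior count for log2 CPM was 2, and the fits that gave the fold changes kept edgeR's default prior count. A count of 0 allows up to 3 counts in a library, for counting error only. Single receptors were also tested with an exact two-sided permutation test over the 10 libraries, whose smallest p is 0.00794, and 6 receptors had that value (Ccr1, Ccr2, Ccrl2, Cx3cr1, Cxcr1 and Ackr3). DESeq2 1.42.0 and limma 3.58.1 served as alternatives. One item is not reported here. The script was tested on simulated data. Positions and promoters came from RefSeq (GRCm38.p6, the build of the alignment) with strands from GENCODE, and promoters matched for all 9 receptors. Shared stretches were searched in GENCODE M21 transcripts. Figures were drawn with matplotlib 3.10.9.

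All 9 receptors were named, and of each other list the 3 highest and 3 lowest log2 fold changes among called genes, every ligand beside its receptor, the most abundant gene of each marker list, the 2 genes nearest in pattern, and chromosomal neighbors among the other chemokine receptors. Further marker genes were chosen after their values were seen. The receptors and gene lists were chosen with earlier results of these data known. Per the study's methods a sample is a single mouse or a pool of metastases, and p-values measure the spread between such samples.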

Additional observations from a re-analysis of the deposited data

Results flagged for a closer look

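In groups of 5 libraries, the gap between the highest or lowest library and its nearest neighbor was divided by the range of the group, and 4 of 60 groups passed Dixon's 95% limit, where chance passes about 1 in 20. RAM replicate 4 stood above the other RAM libraries for Ccr3, at 0.0835 CPM against 0 to 0.0207 CPM, which is 4 counts. RAM replicate 2 stood above the others for Ackr3, at 0.480 CPM against 0.0209 to 0.154 CPM. MAM replicate 3 stood above the others for Ccr9, at 8.74 CPM against 1.75 to 3.72 CPM. MAM replicate 5 stood above the others for Cxcl3, a ligand of Cxcr2, at 50.9 CPM against 16.1 to 22.1 CPM.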

How the results depend on the processing

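Each receptor kept its direction and its side of the threshold under the alternatives run (other normalizations and filters, DESeq2, limma on FPKM, 1% of the other group subtracted, each library left out), except Cxcr2, which missed the threshold in the test against a fold of 2, leaving 1 receptor lower instead of 2, and Cxcr4, whose value near 0 changed sign in some settings without a call. Leaving out single libraries gave 5 to 5 receptors higher and 2 to 2 lower, and without the filter 6 were higher, with Ccr3. Over all genes, 3511 were called, 4672 without the filter and 2511 against a fold of 2.

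Single libraries moved the fold itself, not its log2, by more than 1.5 times for 4 called receptors, Cxcr1, Cxcr2, Cx3cr1 and Ackr3. On the log2 scale Cxcr1 was then at -4.12 without MAM replicate 4 and at -4.13 without MAM replicate 5. Cxcr2 was at -2.75 without MAM replicate 4, Cx3cr1 at 6.13 without RAM replicate 5 and Ackr3 at 6.80 without RAM replicate 2. In limma on log2(FPKM + 1), which compresses low values, Ackr3 was at 2.36, Cx3cr1 at 2.29 and Cxcr1 at -2.23, and with a pseudocount of 0.1 Ackr3 was at 4.75. Subtracting 1% of the other group put Ackr3 at 6.53, and replicates 4 and 5 alone put it at 7.81 and Cx3cr1 at 3.93, where replicates 1 to 3 put Cx3cr1 at 5.95. With the 2 sets of replicates as a covariate Cxcr1 was at -4.93 and Cxcr2 at -2.77. These fits on sets of replicates were added after seeing the data. Replicate numbers did not pair the libraries, since deviations of same-numbered libraries correlated between -0.04 and 0.03. With a replicate block 3526 genes were called, and the log2 fold changes were 4.99 for Ccr2, 1.84 for Ccr1, 2.61 for Ccrl2, 5.84 for Cx3cr1, 6.25 for Ackr3, -4.85 for Cxcr1, -2.71 for Cxcr2 and -0.12 for Cxcr4, with 5 receptors higher and 2 lower. Levels of Ccr3 in RAMs rest on 7 counts in all and those of Ackr3 on 49, so depth limits both.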
